A study of Mus musculus with 38 samples.

Results

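Bulk RNA-seq data of 10 epithelial tumor cell marker genes were examined in omental tumors and cell lines of 2 mouse models of high-grade serous ovarian cancer (HGSOC). The genes were taken by name, through their Ensembl identifiers, as 10 of the 55487 genes in the deposited tables: the transcription factor Pax8, the surface protein Epcam, the adhesion protein Cdh1 (E-cadherin), the keratins Krt7, Krt8, Krt18 and Krt19, and the claudins Cldn3, Cldn4 and Cldn7.

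The models were 60577 cells in FVB mice and HGS2 cells in C57BL/6J mice, each injected into the peritoneal cavity of female mice at 8 to 9 weeks of age. Treatment was a weekly dose of carboplatin (20 mg/kg) with paclitaxel (10 mg/kg), given 3 times from day 21 (60577) or day 49 (HGS2) onward, and controls were given vehicle. The time points TP1, TP2 and TP3 lie 1, 7 and 21 days after the last of these doses. There were no TP3 controls, so TP3 treated tumors were set against TP2 controls, where treatment and time cannot be told apart. Between the models, the line, the host strain and the age of the tumor cannot be told apart either. In 60577 there were 3 control and 3 treated tumors at TP1, 3 control and 4 treated at TP2, and 4 treated at TP3. In HGS2 there were 3 and 3 at TP1, 4 control and 3 treated at TP2, and 4 treated at TP3, of which replicate 1 was not in the study's own table of samples and was kept out of the fits. Each untreated line in monoculture had 2 libraries. Estimated counts summed to between 17839635 and 49299442 per tumor and between 31633121 and 42461995 per cell line library.

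Pax8 is a transcription factor of the Müllerian lineage and a diagnostic marker of HGSOC. Epcam and Cdh1 join epithelial cells to each other, the claudins build the tight junction that seals the space between them, and keratins form the filaments of their cytoskeleton, with type II chains (Krt7, Krt8) pairing with type I chains (Krt18, Krt19). Simple-epithelium keratins are also made by mesothelial cells, which line the omentum, and pancreatic duct cells make keratins, Epcam, Cdh1 and claudins. Repressors such as Snai1 and Zeb1 bind the E-box CACCTG in promoters of epithelial genes, while grainyhead factors, which bind AACCNGTT, activate many of them.

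The genes lie on 6 chromosomes of GRCm38. Krt7 (chr15:101411043-101430313), Krt8 (chr15:101996698-102004482) and Krt18 (chr15:102028180-102032027) share a keratin cluster, with Krt8 and Krt18 as neighbors on opposite strands, and Krt19 lies in the type I cluster (chr11:100140810-100148665). Cldn3 (chr5:134986214-134987472) and Cldn4 (chr5:134945119-134946934) are also close together. Pax8 is at chr2:24420560-24475599, Epcam at chr17:87635979-87651129, Cdh1 at chr8:106603351-106670246 and Cldn7 at chr11:69964779-69967885.

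Of 8 members with a RefSeq promoter entry (GRCm38.p6), 6 held at least 1 E-box, read as CACCTG or its reverse complement CAGGTG, in the 250 bases before a RefSeq start. Cdh1 and Krt19 had no entry. The same letters were in 17.2% of all 32851 mouse promoters of that length. The grainyhead letters AACCNGTT, searched on both strands, were in none of the members' windows and in 1.79% of all promoters. Cldn4 and Cldn7 were among the 6, and the windows of Pax8 and Cldn3 held none. The 8 members had 9 entries, since Cldn7 had a further window, which held no E-box. The share of 17.2% counts single entries and the 6 counts members. The promoters of Epcam, Krt7, Krt8 and Krt18 are shown because they hold an E-box and their genes had lower RNA after chemotherapy in 60577. Cldn3 had lower RNA at TP2 and TP3 with no E-box in its window. Capitals mark each E-box, and the sequences run 5' to 3' on the gene's own strand, from chr17:87635729-87635978 (plus), chr15:101412153-101412402 (plus), chr15:102004343-102004592 (minus) and chr15:102027966-102028215 (plus).
Epcam: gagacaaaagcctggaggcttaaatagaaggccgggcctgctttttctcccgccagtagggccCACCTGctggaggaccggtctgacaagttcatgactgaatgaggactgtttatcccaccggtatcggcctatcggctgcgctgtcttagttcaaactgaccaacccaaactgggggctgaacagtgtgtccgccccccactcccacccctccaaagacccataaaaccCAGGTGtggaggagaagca
Krt7: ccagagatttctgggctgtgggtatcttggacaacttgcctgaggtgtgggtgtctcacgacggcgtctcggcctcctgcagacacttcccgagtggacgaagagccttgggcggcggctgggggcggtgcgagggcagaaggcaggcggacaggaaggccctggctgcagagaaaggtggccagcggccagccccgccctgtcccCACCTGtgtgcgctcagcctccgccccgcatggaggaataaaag
Krt8: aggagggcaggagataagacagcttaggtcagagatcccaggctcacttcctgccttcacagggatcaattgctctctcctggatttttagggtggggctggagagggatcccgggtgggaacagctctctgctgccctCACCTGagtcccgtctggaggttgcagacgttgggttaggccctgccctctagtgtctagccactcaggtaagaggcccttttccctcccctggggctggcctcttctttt
Krt18: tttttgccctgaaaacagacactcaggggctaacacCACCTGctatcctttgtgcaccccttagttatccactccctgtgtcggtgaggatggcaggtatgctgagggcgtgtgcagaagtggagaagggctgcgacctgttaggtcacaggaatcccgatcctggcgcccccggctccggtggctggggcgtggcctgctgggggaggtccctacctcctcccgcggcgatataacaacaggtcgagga
The E-boxes of Epcam start 187 and 19 bases before the window's end, that of Krt7 44 bases, that of Krt8 111 bases and that of Krt18 214 bases. A match of letters describes the window only.

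The markers differed widely in level. In the 6 control 60577 tumors, Krt19 (265 to 531 RPKM, a read count scaled by library size and exon length), Krt18 (258.5 to 507 RPKM) and Krt8 (192 to 362 RPKM) were the highest, and their ranges overlapped. Krt7 followed at 38.2 to 52.1 RPKM, below all 3 without overlap. Epcam (9.99 to 25.6 RPKM) and Cdh1 (10.5 to 23.3 RPKM) overlapped each other, and Cldn3 was at 2.81 to 8.81 RPKM. Cldn4 (0 to 0.468 RPKM), Cldn7 (0 to 0.369 RPKM) and Pax8 (0.0615 to 0.156 RPKM) were the lowest. In the 7 HGS2 controls the keratins led again, with Krt19 at 1.75 to 135 RPKM, but each range was wide and all neighbors in the order overlapped.

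Of the 10 members, 7 passed the filter on low counts (1 CPM, a read count scaled by library size only, in 25% of libraries) in both tables, so 7 were tested. Pax8, Cldn4 and Cldn7 did not pass. Pax8 reached at most 0.968 CPM and 25 reads in any tumor, was at 0 in 11 of 34, and had between 9 and 12 reads in the 60577 line and 2 and 0 reads in the HGS2 line. The 6 control 60577 tumors had 11 to 25 reads (0.373 to 0.944 CPM) and the HGS2 tumors 0 to 5 reads. The limit that a count of 0 allows was 3 reads, or 0.0689 to 0.174 CPM in tumors and 0.0673 to 0.101 CPM in lines. These limits cover counting error only.

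**Figure D1:**
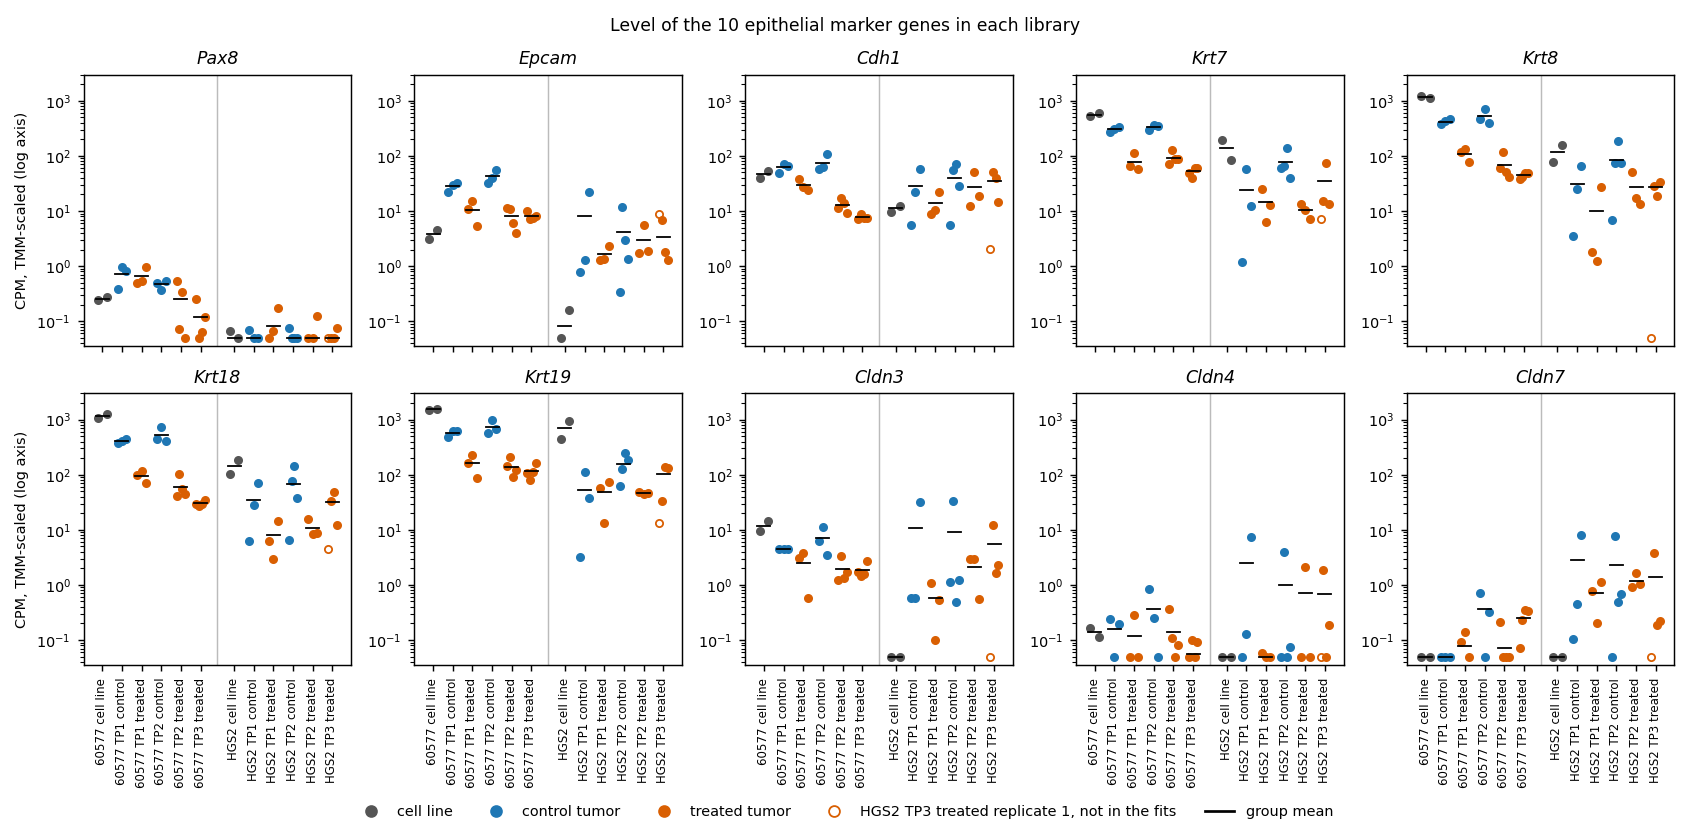
Level of each marker gene in each library, as CPM scaled with TMM on a log axis (cell lines gray, control tumors blue, treated tumors orange, group mean as a bar, values under 0.05 CPM drawn at 0.05). Cell lines and tumors were scaled separately. In 60577 the treated tumors sit below the controls for Epcam, Cdh1 and the 4 keratins, while most HGS2 groups overlap and Pax8 stays below 1 CPM.

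Chemotherapy lowered the epithelial markers in 60577 tumors at TP1. All 4 keratins, Epcam and Cdh1 were called lower, at an adjusted p below 0.05 and a log2 fold change beyond 1 in edgeR's quasi-likelihood test, which is 6 of the 7 tested members against a background of 5.96% of all 16241 genes called lower and 9.65% called higher. The median log2 fold change was -1.84 over the 7 members and 0.00 over all genes. In bulk tissue, fewer cells of a type and less RNA per cell cannot be told apart.

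Krt8 measured 376, 424 and 462 CPM in the TP1 controls and 119, 135 and 77.6 CPM in the treated tumors. Krt18, its filament partner, measured 371, 404 and 453 CPM in controls and 97.5, 116 and 70.6 CPM in treated tumors. For both genes the groups were far apart. The log2 fold change was -1.92 (SE 0.33, adjusted p = 0.00048) for Krt8 and -2.11 (SE 0.31, adjusted p = 0.000155) for Krt18. Krt7 measured 269, 312 and 341 CPM against 64.7, 111 and 56.9 CPM, a log2 fold change of -1.98 (SE 0.26, adjusted p = 7.04e-05). Krt19 measured 492, 614 and 616 CPM against 166, 226 and 88.1 CPM, a log2 fold change of -1.84 (SE 0.35, adjusted p = 0.00124). Neither gene overlapped between groups, and the third treated tumor was the lowest for all 4 keratins.

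The adhesion genes Epcam and Cdh1 were called lower too. Epcam measured 21.9, 29.8 and 32.6 CPM in TP1 controls and 10.7, 15.3 and 5.27 CPM in treated tumors (log2 fold change -1.43, SE 0.39, adjusted p = 0.0107). Cdh1 measured 48.2, 71.7 and 66.8 CPM in controls and 37.6, 27.3 and 24.5 CPM in treated tumors (log2 fold change -1.06, SE 0.25, adjusted p = 0.00523). Cdh1 lay at the fold limit, and its call was lost in 3 of 6 fits that left out 1 tumor, with values of -0.94 without TP1 control 2, -0.99 without TP1 treated 2 and -0.94 without TP1 treated 3. Cldn3, which measured 4.47, 4.44 and 4.50 CPM in controls and 3.03, 3.82 and 0.581 CPM in treated tumors, was not called (log2 fold change -0.84, SE 0.54, adjusted p = 0.251). All 7 members were lower without overlap between the groups, as were 29.8% of all genes.

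At TP2 all 7 tested members were called lower in treated 60577 tumors, against a background of 9.61% of genes called lower and 14.8% called higher. The median over the members was -2.42, beside 0.03 over all genes. Krt8 measured 476, 708 and 398 CPM in controls and 61.0, 116, 50.8 and 41.6 CPM in treated tumors. Krt18 measured 451, 729 and 415 CPM in controls and 41.6, 102, 54.5 and 44.7 CPM in treated tumors. In both, the second control and the second treated tumor were the highest of their group. The log2 fold changes, -2.98 (SE 0.31, adjusted p = 4.58e-06) for Krt8 and -3.15 (SE 0.29, adjusted p = 2.06e-06) for Krt18, correspond to 7.89-fold and 8.85-fold lower levels.

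Krt7 (291, 367 and 354 CPM in controls, 70.1, 128, 87.0 and 86.5 CPM treated) and Krt19 (573, 984 and 682 CPM in controls, 141, 209, 90.5 and 121 CPM treated) had log2 fold changes of -1.87 (SE 0.23) and -2.42 (SE 0.33). Cdh1 measured 57.4, 63.2 and 106 CPM in controls and 11.2, 17.5, 14.2 and 9.29 CPM in treated tumors. Its log2 fold change was -2.54 (SE 0.24, adjusted p = 2.5e-06). Epcam measured 31.7, 39.7 and 56.3 CPM in controls and 11.3, 10.9, 6.03 and 3.92 CPM in treated tumors (log2 fold change -2.41, SE 0.36, adjusted p = 7.93e-05). Cldn3, at 6.38, 11.1 and 3.54 CPM in controls and 1.25, 3.35, 1.32 and 1.72 CPM in treated tumors, now passed as well (log2 fold change -1.88, SE 0.50, adjusted p = 0.00514), although the lowest control and the highest treated tumor nearly met. None of the 7 tested members overlapped between groups, as was the case for 25.5% of all genes that were lower.

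None of the 7 tested members had returned by TP3. All 7 were called lower in TP3 treated tumors than in TP2 controls, against a background of 10.2% called lower and 14.2% called higher, with a median of -2.69 over the members and 0.00 over all genes. Because the TP2 controls served in both comparisons, the TP2 and TP3 results are not independent. Krt18 fell to 28.9, 27.5, 29.1 and 35.3 CPM, the largest difference of any member (log2 fold change -4.13, SE 0.30, adjusted p = 9.5e-08, 17.5-fold lower). Krt8 measured 38.6, 40.8, 48.7 and 49.7 CPM (log2 fold change -3.56, SE 0.31, adjusted p = 5.04e-07). Cdh1 measured 7.30, 8.66, 7.35 and 7.60 CPM (log2 fold change -3.28, SE 0.25, adjusted p = 1.24e-07). The 4 TP3 tumors lay close to each other, with an SD of 0.635 CPM around a mean of 7.73 CPM for Cdh1.

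Krt19 measured 107, 80.2, 111 and 163 CPM at TP3 (log2 fold change -2.69, SE 0.33) and Krt7 49.4, 39.2, 61.4 and 60.1 CPM (log2 fold change -2.68, SE 0.24). Epcam, at 10.1, 7.30, 7.45 and 8.26 CPM, had a log2 fold change of -2.35 (SE 0.36). Cldn3, at 1.73, 1.43, 1.58 and 2.68 CPM, had one of -1.91 (SE 0.50). Each of the 7 tested members was again below the TP2 controls without overlap, beside 29.2% of all genes. Each call at TP2 and at TP3 was kept in all 7 fits that left out 1 tumor of the comparison.

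**Figure D2:**
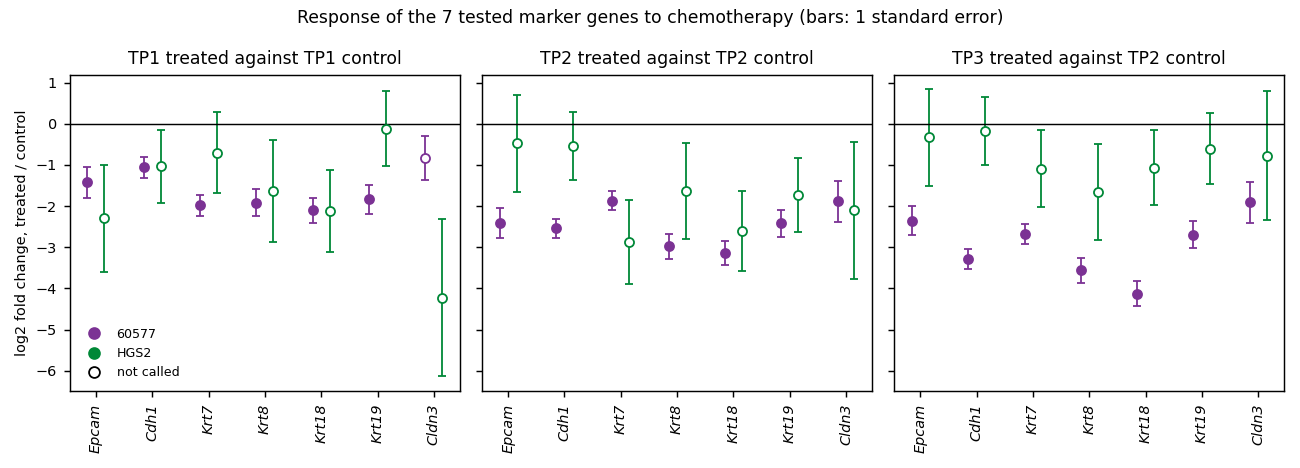
Log2 fold change of the 7 tested markers in treated against control tumors of 60577 (purple) and HGS2 (green), with bars of 1 standard error, and open symbols where no call was made. TP3 treated tumors were compared with TP2 controls. In 60577 the log2 fold changes of Cdh1, Krt8 and Krt18 go from -1.06, -1.92 and -2.11 at TP1 to -3.28, -3.56 and -4.13 at TP3, while no HGS2 value is called and their errors are wider.

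Treated 60577 tumors were also compared with each other across time. From TP1 to TP2 only Cdh1 was called among the 7 members (log2 fold change -1.20, SE 0.24, adjusted p = 0.00622), beside 2.44% of all genes called lower. Krt8 (-0.72, adjusted p = 0.0918) and Krt18 (-0.65, adjusted p = 0.102) did not pass, and Krt7 had a log2 fold change of 0.25 (adjusted p = 0.45). The Cdh1 call was lost without TP1 treated 1, and 3 members were called without TP2 treated 2, when Krt8 (-1.12) and Krt18 (-1.02) joined it. From TP2 to TP3 edgeR called 0 members, beside 7.87% of all genes called in either direction. At an unadjusted p below 0.05 there were 3 members, limma-voom and DESeq2 also called 0, and without a limit on the fold change 3 passed, all lower: Krt18 (-0.99, adjusted p = 0.0124), Krt7 (-0.80, adjusted p = 0.0135) and Cdh1 (-0.73, adjusted p = 0.0232). Krt18 was called when TP2 treated 1, 3 or 4 or TP3 treated 4 was left out.

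The controls gave no call across time. Between TP1 and TP2 controls of 60577, edgeR called 0 of the 7 members and 0 of 16241 genes (0%, which is also its background), with 1501 genes and 0 members at an unadjusted p below 0.05. Limma-voom called 0 genes, and DESeq2 called 70 genes and 0 members. The members' log2 fold changes lay between 0.14 (Krt7) and 0.66 (Cldn3).

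The make-up of the keratins was then described. In control 60577 tumors, Krt19 held 34.1 to 40.4% of the summed RPKM of Krt7, Krt8, Krt18 and Krt19, as in the 60577 line (35.6 and 35.8%). In TP3 treated tumors it held 55.2, 48.7, 52.6 and 60.0%. The level of Krt19 per Krt18 was 0.984 to 1.27 in controls, 1.32, 1.52 and 0.966 in TP1 treated tumors, 2.63, 1.58, 1.29 and 2.10 in TP2 treated tumors, and 2.87, 2.26, 2.95 and 3.57 in TP3 treated tumors. Ratios overlapped at TP1 and did not at TP2 or TP3. This ratio was chosen after the values were seen, and a two-sided exact permutation test of its log2 gave a difference of 0.20 at TP1 (p = 0.4, the smallest possible being 0.1), of 0.74 at TP2 and of 1.39 at TP3 (both p = 0.0571, the smallest that 4 against 3 tumors can give, and 0.0857 after Benjamini-Hochberg adjustment over 3 tests). The design cannot reach 0.05 here. The ratio of Krt18 to Krt8 was 1.29 to 1.42 in controls and 0.815 to 1.02 at TP3.

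**Figure D3:**
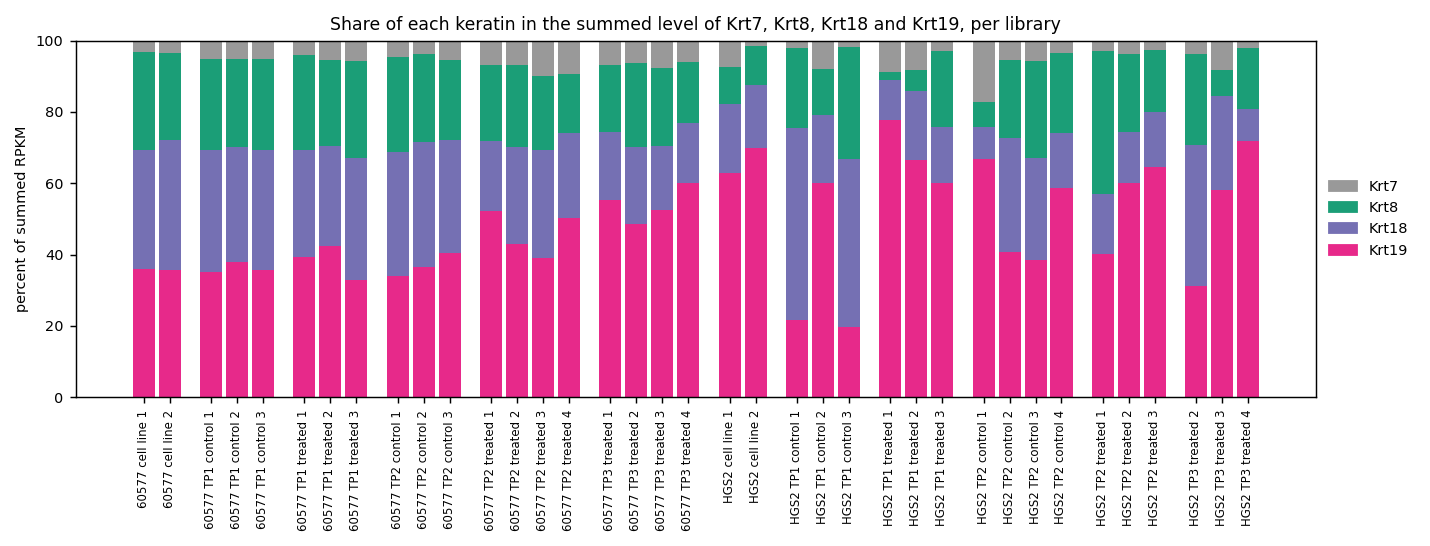
Share of Krt7, Krt8, Krt18 and Krt19 in their summed RPKM, in percent, for each library in the fits and each cell line library. In 60577 the share of Krt19 is 34.1 to 40.4% in controls and 48.7 to 60.0% in TP3 treated tumors, and in HGS2 the shares differ strongly between tumors of a group.

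Of 50 further genes of epithelial junctions, keratins and regulators, 35 passed the filter. At TP1 16 were called lower and 1 higher (median log2 fold change -0.93), at TP2 20 lower and 3 higher (-1.07), and at TP3 20 lower and 3 higher (-1.40). Elf3, an epithelial transcription factor, had the largest change at each time (-2.43, SE 0.40, adjusted p = 0.000359, then -3.55 and -4.19), and the keratins of stratified epithelium Krt17 and Krt14 were lower with it (-2.27 and -2.13 at TP1, -2.12 and -2.33 at TP2, -3.29 and -3.43 at TP3). The genes called higher included the protease St14 (1.55 at TP1, 1.25 at TP2, 1.60 at TP3) and Cldn1, a claudin outside the member set (1.78 at TP2, 1.89 at TP3). Of 12 Müllerian genes, 10 were tested, and 0 were higher and 2 lower at TP1, 2 higher and 2 lower at TP2, and 3 higher and 4 lower at TP3. The largest were Lhx1 (-3.12 at TP3), Sox17 (2.76) and Pgr (2.50), in both directions. Sox17 was at 0 CPM in both cell lines, at 0.0932 to 2.75 CPM in 60577 controls and at 2.40 to 18.1 CPM in treated tumors. St14 was at 0 to 0.314 CPM in the 60577 line and at 0 CPM in the HGS2 line. The cells that carried these 2 genes in the tumors were not measured.

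Genes of other cell types moved in the same tumors. Of 12 mesothelial genes, which include Krt14 of the epithelial list and Wt1 of the Müllerian list, 9, 5 and 8 were called lower at TP1, TP2 and TP3 and 0 were called higher. Their summed level was 2906 to 3892 CPM in control and 935 to 2105 CPM in treated 60577 tumors. Both cell lines also carried these genes (4401 and 4802 CPM in 60577, 2961 and 4808 CPM in HGS2), among them Msln at 524 to 680 CPM in the 60577 line, so the list does not separate host mesothelium from injected cells here. The summed leukocyte level was 595 to 1187 CPM in controls and 1123 to 3808 CPM in treated tumors. The adipocyte sum was 39.5 to 59.6 CPM in controls and 35.1 to 3096 CPM in treated tumors, with 2245 to 3096 CPM at TP3. The fibroblast sum was 5778 to 10053 CPM in controls and 7978 to 27399 CPM in treated tumors. Of 12 pancreatic acinar genes, 12 were called lower at TP2 and 0 were called at TP1 and TP3. Their sum was 2112, 11.6 and 362 CPM in the TP2 controls, 8.59 to 34.0 CPM in TP2 treated and 86.8 to 557 CPM in TP3 treated tumors. TP2 control 2, the one with the lowest acinar sum, had the highest Krt7, Krt8, Krt18, Krt19 and Cldn3 of the TP2 controls. Epcam and Cdh1 were highest in TP2 control 3, which had an acinar sum of 362 CPM. Of the 3 pancreatic duct genes tested, Cftr, Sox9 and Spp1, Cftr was lower and Spp1 higher at TP1 and all 3 were lower at TP2 and at TP3. The sum of the duct list was 119 to 227 CPM in TP1 controls and 130 to 796 CPM in TP1 treated tumors. It was 244, 430 and 210 CPM in TP2 controls, 19.5 to 54.4 CPM in TP2 treated tumors and 41.1 and 43.6 CPM in the 60577 line. The part of all these cell types in the lower marker levels was not tested.

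HGS2 tumors gave no call for any marker. edgeR called 0 of 7 members and 0 of 16241 genes (0%) in each of 6 comparisons, which were TP1, TP2 and TP3 treated against control, TP2 against TP1 and TP3 against TP2 treated tumors, and TP2 against TP1 controls. For treatment at TP1, TP2 and TP3, 413, 1233 and 406 genes and 1, 2 and 0 members had an unadjusted p below 0.05. In the 3 comparisons across time, in that order, 152, 1690 and 569 genes and 0 members had one. Limma-voom called 0 genes in all 6, and DESeq2 called 1, 8 and 5 genes for treatment and 1, 105 and 7 across time, with 0 members each.

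The HGS2 values scattered widely. Krt18 measured 6.23, 28.0 and 71.2 CPM in TP1 controls and 6.31, 3.01 and 14.6 CPM in TP1 treated tumors. At TP2 it measured 6.5, 78.3, 145 and 37.6 CPM in controls and 15.8, 8.26 and 8.63 CPM in treated tumors. The groups overlapped at both times through the lowest control. Its log2 fold change was -2.13 (SE 1.00, adjusted p = 0.999) at TP1, -2.61 (SE 0.98, adjusted p = 0.601) at TP2 and -1.06 (SE 0.91) at TP3. At TP1 the size was near that of 60577 (-2.11, SE 0.31), with a wider error. Krt7 measured 61.5, 64.7, 138 and 40.2 CPM in TP2 controls and 13.6, 10.3 and 7.21 CPM in TP2 treated tumors, which did not overlap but was not called (log2 fold change -2.87, SE 1.02, adjusted p = 0.601). Krt19 measured 62.6, 128, 249.7 and 185 CPM in TP2 controls and 49, 45.0 and 46.8 CPM in TP2 treated tumors, also without overlap and not called (-1.74, SE 0.90). These 2 of the 7 members were lower without overlap at TP2, beside 6.72% of all genes. At TP2, same-numbered control and treated tumors deviated together weakly (r = 0.138, 0.295 and 0.296), but the labels give no pairing. With the number as a block there, 0 members were called, with Krt7 at -3.02 (SE 1.20).

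Krt7 was not low in all treated HGS2 tumors, at 15.3, 75.5 and 13.6 CPM in TP3 replicates 2 to 4. Krt8 ranged from 3.55 to 188 CPM in the 7 HGS2 controls, with a median of 65.2 CPM, and from 1.24 to 51.8 CPM in the 9 treated tumors, with a median of 18.4 CPM. Krt19 ranged from 3.24 to 249.7 CPM in controls and 13.3 to 139 CPM in treated tumors. TP1 control 1 had the lowest Krt7 (1.21 CPM) and Krt19 of all 16 tumors, a Krt8 level of 3.55 CPM, and a mesothelial sum of 130 CPM. In the left-out TP3 treated replicate 1, Krt8 was at 0 CPM, Krt18 at 4.47, Krt7 at 7.03, Cdh1 at 2.03 and Epcam at 8.66 CPM. Pax8, Cldn3, Cldn4 and Cldn7 were at 0 there, beside a fibroblast sum of 130647 CPM.

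Cdh1, Epcam and Cldn3 gave no call in HGS2 either. Cdh1 measured 5.55, 22 and 58.1 CPM in TP1 controls, 8.93, 10.3 and 22.4 CPM in TP1 treated tumors, 5.65, 55.0, 70.4 and 28.4 CPM in TP2 controls, 12.6, 50.9 and 18.7 CPM in TP2 treated tumors and 50.3, 40.1 and 14.6 CPM in TP3 treated tumors. All of its groups overlapped. Its log2 fold change was -1.04 (SE 0.90) at TP1, -0.54 (SE 0.84) at TP2 and -0.17 (SE 0.83) at TP3. Epcam measured 0.792, 1.27 and 22.5 CPM in TP1 controls, 0.335, 11.9, 2.94 and 1.32 CPM in TP2 controls, and 1.30 to 6.92 CPM in the 9 treated tumors. A single control at each time stood above the rest. The log2 fold change of Epcam at TP1, -2.30 (SE 1.31), lay between -2.84 and 0.68 over the 6 fits that left out 1 tumor. Cldn3 had the same 2 high controls, at 31.5 CPM among 0.586 and 0.571 CPM at TP1 and at 33.1 CPM among 1.15, 0.483 and 1.21 CPM at TP2.

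These high values fell in tumors with pancreatic RNA. The mouse pancreas adjoins the omental fat, and its acinar cells secrete digestive enzymes. In 3 HGS2 tumors, TP1 control 3, TP2 control 2 and TP3 treated 2, the summed level of 12 acinar genes was 86714, 170290 and 87767 CPM. These are 8.67, 17 and 8.78% of library totals after TMM scaling, not of the counts themselves. Cldn3 was 12.4 to 33.1 CPM in these 3 tumors and 0.1 to 2.98 CPM in the other 13 HGS2 tumors. Epcam was 6.92 to 22.5 CPM and 0.335 to 5.48 CPM, Cldn7 3.75 to 8.12 CPM and 0 to 1.67 CPM, and Cldn4 1.85 to 7.37 CPM and 0 to 2.10 CPM. Cldn4 overlapped, through TP2 treated 2, which had an acinar sum of 1037 CPM. Epcam was also high, at 8.66 CPM, in the left-out TP3 treated replicate 1, which had an acinar sum of 111 CPM. The duct sum of the 3 acinar-rich tumors was 263, 211 and 207 CPM, within the 44.6 to 1846 CPM of the other 13. Genes of the duct list went in opposite directions in 60577 at TP1, with Cftr lower and Spp1 higher. Its sum therefore cannot show the share of duct cells, which was not tested.

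Among epithelial regulators, the grainyhead factor Grhl2 was at 5.56 to 12.4 CPM in the 3 tumors and at 0 to 4.37 CPM in the other 13. The splicing factor Esrp1 was at 10.1 to 24.3 CPM and at 0 to 2.38 CPM. Both were at no more than 0.548 CPM in any cell line library. Cdh1 (50.3 to 58.1 CPM against 5.55 to 70.4 CPM) and the keratins overlapped, with Krt19 at 33.2 to 128 CPM in the 3 tumors and 3.24 to 249.7 CPM in the others. In 60577, TP2 control 1 had an acinar sum of 2112 CPM and the highest Cldn4 (0.850 CPM) and Cldn7 (0.720 CPM) of that model's tumors. Without the 3 acinar-rich tumors, a setting chosen after the data were seen, HGS2 treatment still gave 0 called members at each time.

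The control tumors of the models differed. Compared with 6 control 60577 tumors, 7 control HGS2 tumors had lower levels of 5 of the 7 tested members, against a background of 8.81% of genes called lower and 13.2% called higher. The median over the members was -2.86 and over all genes 0.05. Krt18 (log2 fold change -3.27, SE 0.53, adjusted p = 1.57e-05) and Krt8 (-3.18, SE 0.66, adjusted p = 0.000264) led, followed by Krt7 (-2.92, SE 0.53), Krt19 (-2.86, SE 0.51) and Epcam (-2.58, SE 0.66, adjusted p = 0.00199). Krt18 ranged from 6.23 to 145 CPM (median 37.6) in HGS2 and from 371 to 729 CPM (median 433) in 60577. The 4 keratins did not overlap between the models, beside 12.1% of all genes that were lower without overlap, and Epcam overlapped through the acinar-rich TP1 control 3. Cdh1 (-1.02, SE 0.46, adjusted p = 0.0626) and Cldn3 (0.82, SE 0.87, adjusted p = 0.447) were not called by edgeR. Limma-voom and DESeq2 each called 6 members, with Cdh1 at -1.58 (adjusted p = 0.00679) and -1.03 (adjusted p = 0.0396), and limma-voom put Cldn3 at -1.47 (adjusted p = 0.105).

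Leaving out the 3 acinar-rich tumors turned the sign of Cldn3 to -2.94 (SE 0.55, adjusted p = 0.000104) and deepened Epcam to -4.81 (SE 0.49) and Cdh1 to -1.68 (SE 0.49), so that all 7 tested members were called lower, with 23.2% of all genes called in either direction. With no filter on low counts, Pax8 was called lower (-4.48, SE 0.88, adjusted p = 0.000224) and Cldn7 higher (4.64, SE 1.17, adjusted p = 0.003) in HGS2 controls. Cldn7 was at 8.12 and 7.86 CPM in the 2 acinar-rich controls, at 0 to 0.681 CPM in the other 5 and at 0 to 0.720 CPM in 60577 controls. Of the 35 further epithelial genes, 17 were lower and 8 higher in HGS2. They included Krt17 (-5.85, SE 0.55), Epn3 (-4.03, SE 0.35), an adaptor of endocytosis, and the protease inhibitor Spint1 (4.46, SE 0.71). The fibroblast sum was 27888 to 134140 CPM in HGS2 controls and 5778 to 10053 CPM in 60577 controls, the HGS2 line itself had 32667 and 15112 CPM of it, and its part in the lower marker levels was not tested.

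The response to chemotherapy was then compared between the models, as the HGS2 minus the 60577 log2 fold change. At TP1 and TP2, 0 of 7 members differed in edgeR, beside 1.45% and 6.9% of all genes called in either direction. With the replicate number as a block at TP2, 0 members and 1.87% of all genes were called there. At an unadjusted p below 0.05, 0 and 1 member differed, and limma-voom and DESeq2 called 0 members. At TP3, treated tumors being set against TP2 controls, 2 members differed, both with a smaller decrease in HGS2, beside 5.87% of all genes called higher. For Cdh1 the difference was 3.11 (SE 0.88, adjusted p = 0.0161) and for Krt18 it was 3.05 (SE 0.95, adjusted p = 0.0268). The other differences at TP3 lay between 1.18 (Cldn3) and 2.07 (Krt19, adjusted p = 0.118).

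The calls at TP3 depended on which tumors were included. With TP3 treated replicate 1 added, neither passed (Cdh1 2.72, adjusted p = 0.07, and Krt18 2.71, adjusted p = 0.0715). The Krt18 call was lost without HGS2 TP2 control 4, without HGS2 TP3 treated 3 and without 60577 TP2 control 2, and Cdh1 was called in all 14 fits that left out 1 tumor. Without HGS2 TP2 control 2, or without all 3 acinar-rich tumors, 4 members differed. In the second setting they were Cdh1 (3.01, adjusted p = 0.0167), Krt18 (3.17, adjusted p = 0.0245), Cldn3 (2.98, adjusted p = 0.0234) and Epcam (2.45, adjusted p = 0.0233), with 18.6% of all genes called. At TP2 that setting called Epcam (3.43, adjusted p = 0.00639) and Cldn3 (3.09, adjusted p = 0.0287), with 8.45% of all genes called.

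The cell lines showed how much of the marker set the injected cells carried in culture. Tumor and line tables were scaled separately, so their RPKM values are given side by side without a test. In the 60577 line Krt8 measured 581 and 614 RPKM, Krt18 749 and 870 RPKM and Krt19 803 and 848 RPKM, each above the control tumors. Cdh1, at 8.77 and 11.5 RPKM, was near them, and Cldn3, at 7.46 and 11.3 RPKM, reached above them. Epcam, at 1.39 and 2.04 RPKM, was below the 9.99 to 25.6 RPKM of control tumors and near the lowest treated tumors (1.79 RPKM). Cldn4 had 6 and 5 reads and Cldn7 0 and 2 reads. The 60577 line was thus a keratin-rich culture with little Epcam and Pax8.

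The HGS2 line carried fewer markers. In edgeR, 6 of the 7 tested members were lower in HGS2 than in 60577 cells, against a background of 8.38% of 13742 genes called lower and 7.55% called higher, with a median of -3.01 over the members and -0.03 over all genes. Krt8 measured 1203 and 1138.5 CPM in 60577 and 76.2 and 158 CPM in HGS2 (log2 fold change -3.32, SE 0.42, adjusted p = 0.0089). Krt18 measured 1076 and 1250.5 CPM in 60577 and 104 and 185 CPM in HGS2 (-3.01, SE 0.36, adjusted p = 0.00823). Cdh1 measured 40.1 and 52.4 CPM in 60577 and 9.73 and 12.5 CPM in HGS2 (-2.06, SE 0.25, adjusted p = 0.00822). Krt19 was not called by edgeR, at 1489 and 1574 CPM in 60577 and 439 and 957 CPM in HGS2 (-1.13, SE 0.42, adjusted p = 0.118). DESeq2 called it (-1.12, adjusted p = 0.0235), and with it all 7 members, and limma-voom did not (adjusted p = 0.0992). Its level per Krt18 was 3.26 and 4.00 in HGS2 cells and 1.07 and 0.975 in 60577 cells.

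Epcam, Cldn3, Cldn4 and Cldn7 were nearly absent from HGS2 cells. Cldn3 had 343 and 636 reads in the 60577 libraries and 1 and 0 in the HGS2 libraries. The ratio per TMM-scaled library total was 806, with a 95% exact interval of 144 to 31880 for counting error. Epcam had 111 and 200 reads in 60577 and 0 and 6 in HGS2, a ratio of 42.7 (interval 19.4 to 117). Both genes were called (adjusted p = 0.00335 and 0.021). Cldn4 and Cldn7 had 0 reads in both HGS2 libraries, which allows up to 3 reads each. They had few reads in the 60577 line too (6 and 5 for Cldn4, 0 and 2 for Cldn7). Krt7 measured 520 and 589 CPM in 60577 and 194 and 82.7 CPM in HGS2 (-2.00, SE 0.44, adjusted p = 0.034).

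With 2 libraries a line, the calls of Krt7 and Epcam were lost without either 60577 library, and that of Cdh1 without the second one, which left 3 members called. Of 32 further epithelial genes tested in the lines, 19 were lower and 1 higher in HGS2. The desmosomal cadherin Dsg2 led, with 5607 and 8710 reads in 60577 and 3 and 2 reads in HGS2, followed by the desmosomal cadherin Dsc2 (297 and 434 against 1 and 8 reads) and the polarity gene Crb3 (33 and 100 against 2 and 0 reads). The 1 higher gene was Cldn1, at 3.26 and 5.34 CPM in 60577 and 93.1 and 46.2 CPM in HGS2. The tumor libraries hold injected and host cells together, so the share of each marker from either was not measured.

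As a description, the genes whose levels across tumors were most like the members were listed, from the correlation of log2 CPM with the mean of the 10 centered and scaled members. Over the 17 tumors of 60577 these were Ube2t (Pearson's r = 0.976), Plet1, Btc, Oip5, Dmkn, Stmn1, Cpe, Aurka, Nusap1 and F11r (r = 0.969). Of these, 1 was in the epithelial list, which was F11r, a junction protein. Over the 16 tumors of HGS2 they were Pclo (r = 0.939), Prr15l, Fxyd3, Fam187b, Plekha7, Itih4, Prkaa2, Tbc1d16, Tbccd1 and Pm20d2 (r = 0.873). With the mean over the 7 members that passed the filter, 4 of 10 genes stayed in 60577 and 5 of 10 in HGS2. The tumors fall into treated and control groups and share the scaling of the table, so no p is given.

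Overlapping transcripts and named keratin pseudogenes were also looked up. Krt8 shares 101 exon bases with the antisense gene Gm36026, Pax8 367 with Gm13415, Krt7 77 with Gm671 and Cldn3 40 with Wbscr25, and none of these partners exceeded 2.54 CPM. The pseudogene Krt8-ps was at no more than 2.35 CPM, and copies without such a name were not searched. These levels are not low beside every member: Pax8 reached at most 0.968 CPM, and Krt8 was as low as 1.24 CPM in the tumors of the fits.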

How the data were processed

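The authors trimmed strand-specific, rRNA-depleted paired-end reads and deposited estimated counts per gene, for which the submitters' processing notes name Trim Galore 0.6.5, STAR 2.7.0f and RSEM, on GRCm38. These were rounded to whole counts here, in a tumor table and a cell line table that were scaled separately. Genes reaching 1 CPM in 25% of libraries or more were kept, and libraries were scaled with TMM. Comparisons used edgeR 4.0.16 (R 4.3.3), with a two-sided quasi-likelihood test and Benjamini-Hochberg adjustment over all genes kept. Calls needed an adjusted p below 0.05 together with a log2 fold change beyond 1 in either direction. The SE is the absolute log2 fold change divided by the square root of F. The 5 groups of a model were fitted together, and both models jointly for comparisons between them. RPKM used union exon lengths of GENCODE M21 (55227 of 55487 genes matched), and log2 CPM used a prior count of 2. The fit was tested on simulated data.

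The members and gene lists were chosen with earlier results of these data known. All 10 members were described in each comparison, and other lists by counts, their called genes with the largest changes and defining markers. Genes singled out beyond that, and the acinar-rich tumors, were chosen after their values were seen. The HGS2 TP3 treated replicate 1 was kept out of the fits, which used 33 tumors. Nothing in the labels says more of how replicates were separated than their numbers, so p-values measure the spread between these samples. No 2 libraries of the same group were copies of each other, and pairs across groups were not compared. At TP2, control and treated tumors of the same number deviated together in all 3 pairs of each model (r = 0.144, 0.114 and 0.134 in 60577 and 0.138, 0.295 and 0.296 in HGS2). The labels give only the number, so this pairing was read from these data and used only in an alternative fit. Between no other groups did all pairs exceed 0.1 (r between -0.418 and 0.318 over all 31 pairs in 60577, and between -0.488 and 0.367 over all 27 in HGS2). Alternatives were limma-voom (limma 3.58.1), DESeq2 1.42.0, DESeq2 size factors, other filters, no limit on the fold change, a replicate block, a block at TP2 alone (added after seeing the data), a fit of the compared groups alone and leaving out each library. Python 3.11.15 with pandas 2.3.3, numpy 2.4.6 and matplotlib 3.10.9 served for tables and plots. Totals of 17839635 to 49299442 counts per tumor set the precision of low genes, and intervals cover counting error only.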

Additional observations from a re-analysis of the deposited data

Results flagged for a closer look

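In groups of 4 libraries, a value was picked out when its gap to the nearest other library was over Dixon's 95% limit for the group's range. Of 40 pairs of a member and a group tested, 8 were picked out. The limit picks out about 1 in 20 by chance only for independent, normally distributed values. These were CPM values, some at 0, and several picks came from the same tumor, so that rate cannot be applied here. In HGS2 TP2 control 2, Cldn3 (33.1 CPM), Cldn4 (3.93 CPM) and Cldn7 (7.86 CPM) stood above the other 3 controls. In HGS2 TP3 treated 2, Cldn4 (1.85 CPM) and Cldn7 (3.75 CPM) did. Both tumors were acinar-rich, with acinar sums of 170290 and 87767 CPM, and the part of these in the claudin levels was not tested. Krt7 was at 75.5 CPM in HGS2 TP3 treated 3, among 7.03 to 15.3 CPM in the other 3. Pax8 was at 0.0743 CPM in HGS2 TP2 control 1 and at 0.0741 CPM in HGS2 TP3 treated 4, 2 reads each, with 0 reads in the others of the group.

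The treatment response at TP3 against TP2 controls differed between the models for 2 members, by a test of the difference itself. The HGS2 minus 60577 log2 fold change was 3.11 for Cdh1 and 3.05 for Krt18.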

How the results depend on the processing

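No result turned its sign among those called. Of the counts of members called, 277 stayed within 1.5 times the reported count under an alternative and 15 did not. The 277 include counts of 0 that stayed at 0, as for HGS2 treatment, and these say little about how stable a call is. Of the log2 fold changes of called members, 496 kept their direction and call and 14 kept only their direction. With no limit on the fold change, 3 members rather than 0 differed between TP2 and TP3 treated 60577 tumors. Leaving out each library gave 0 to 3 members for treated TP2 against TP1 in 60577, 0 to 1 for treated TP3 against TP2, 1 to 4 for the difference in response at TP3, and 3 to 7 for the cell lines. Without the 3 acinar-rich HGS2 tumors, chosen after seeing the data, the difference in response had 2 members at TP2 and 4 at TP3. With all 17 HGS2 tumors it had 0 at TP3. The cause was not tested.

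A pairing by replicate number was read from the data at TP2 only, and the labels do not state it. With a replicate block at TP2, 7 members were called in 60577 and 0 in HGS2, as without it. With the replicate block over all times, 6, 7 and 7 members were called for 60577 treatment at TP1, TP2 and TP3, as without it, 6 rather than 5 for HGS2 against 60577 controls, and 2 for the difference in response at TP3. For treated TP2 against TP1 in 60577, fewer genes were called with the block (3.51% of 16241) than without it (977 of 16241). In the cell lines 6 members were called with the block and 6 with the numbers crossed, a setting chosen after seeing the data. Pax8, Cldn4 and Cldn7 did not pass the filter, and where they lie below 1 CPM they are limited by depth. Cldn4 and Cldn7 reached 7.37 and 8.12 CPM in HGS2 tumors. With no filter Pax8 passed at TP3 in 60577 (-1.96, SE 0.69, adjusted p = 0.0388 in edgeR). HGS2 groups are limited by their scatter, and TP3 by the lack of its own controls.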
